A study of Mus musculus with 4 samples.

Results

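Mammalian body cells keep a set of germline genes silent, and the data here describe 10 of them (Dazl, Ddx4, Mael, Sycp1, Sycp3, Tex101, Asz1, Taf7l, Stk31 and Slc25a31) in mouse embryonic fibroblasts (MEF cells). They were taken from the deposited count table by name, through their Ensembl identifiers, and are 10 of the 54842 genes it lists. All 10 identifiers were found, whatever their counts. The list was drawn up as genes silenced by DNA methylation. No methylation was measured in these libraries, and no treatment that removes it was part of the comparison.

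Ribosomal RNA-depleted total RNA was sequenced from 2 libraries of wild-type MEF cells (wt) and 2 libraries of MEF cells null for topoisomerase 2β (Top2β-null), all untreated. Top2β is an enzyme that passes one DNA duplex through another to release catenates and supercoils, and the comparison asks how its loss bears on transcription. The Top2β-null cells descend from knockout mice and came to the study as a gift, so that genotype and the origin of the cells cannot be told apart. The labels number the replicates without saying that they are separate cultures, and the p-values then measure the spread between these libraries alone.

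Genes of this kind are needed to make germ cells, and several of them are known to become active in body cells when DNA methylation is lost. Their promoters are rich in CpG dinucleotides that are methylated in body cells, which is uncommon among CpG-rich promoters. In textbook accounts the first silencing is set up in the early embryo by Dnmt3b, Dnmt1 copies the methylation at each cell division, and a variant Polycomb complex with E2f6, Mga, Max, L3mbtl2 and Pcgf6 recognises many of the promoters through the motif of E2f factors or through an E-box.

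The promoters are shown first, since CpG content and these motifs are what such genes are known to share. RefSeq promoters of GRCm38.p6 (250 bases before to 50 bases after a transcription start) were found for all 10 genes, with a second start for Stk31. The RefSeq starts of Sycp1, Taf7l and Asz1 and the second start of Stk31 are also the gene starts of GENCODE M21, those of Dazl, Ddx4, Mael, Sycp3, Tex101 and Slc25a31 lie inside the M21 gene, and the first of Stk31 lies before it. The 250 bases before the start are printed below for Sycp1, Taf7l and Dazl. Sycp1 was called higher in Top2β-null cells, Taf7l was lower there but passed the test in some fits only, and Dazl had no count. CACGTG, the E-box, is in capitals. The regions are chr3:102936101-102936350 (Sycp1), chrX:134476491-134476740 (Taf7l) and chr17:50293621-50293870 (Dazl), all read from the reverse strand, in the direction of transcription.
Sycp1: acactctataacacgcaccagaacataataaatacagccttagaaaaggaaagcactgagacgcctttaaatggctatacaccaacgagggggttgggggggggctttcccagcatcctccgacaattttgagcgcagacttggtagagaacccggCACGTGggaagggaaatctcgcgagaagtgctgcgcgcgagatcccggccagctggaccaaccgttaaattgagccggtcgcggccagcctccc
Taf7l: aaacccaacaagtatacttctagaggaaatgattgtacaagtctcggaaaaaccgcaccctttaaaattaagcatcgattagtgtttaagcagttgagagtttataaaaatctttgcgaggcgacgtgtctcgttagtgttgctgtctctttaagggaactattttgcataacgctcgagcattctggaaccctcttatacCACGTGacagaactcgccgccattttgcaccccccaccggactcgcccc
Dazl: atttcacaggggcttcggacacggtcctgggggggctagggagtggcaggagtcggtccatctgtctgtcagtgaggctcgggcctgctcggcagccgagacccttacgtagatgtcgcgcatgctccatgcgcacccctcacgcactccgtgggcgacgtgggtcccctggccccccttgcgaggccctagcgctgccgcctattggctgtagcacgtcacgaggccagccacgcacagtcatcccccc

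The Sycp1 promoter held 21 CpG dinucleotides in 300 bases, the Taf7l promoter 17 and the Dazl promoter 28. Over the 11 promoters of the 10 genes, the number ran from 15 (Sycp3) to 38 (Ddx4), with a median of 22, while the median over all 32841 RefSeq promoters was 7. The observed number of CpG divided by the number that the base composition gives ranged from 0.666 (Sycp3) to 1.03 (Taf7l), with a median of 0.795, against 0.384 over all promoters. All 10 genes thus have a CpG-dense promoter, whether they had counts in these cells or not. The plot of CpG content shows that the members lie in the broad upper part of the distribution and not at its extreme.

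**Figure D1:**
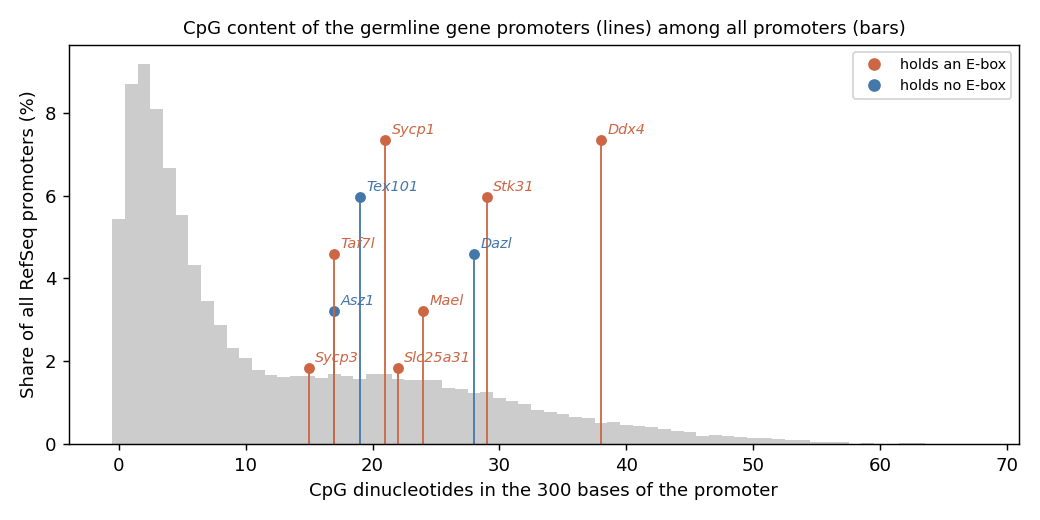
Bars give the share of all 32841 RefSeq promoters (y axis, in percent) with each number of CpG dinucleotides in 300 bases (x axis), and each line marks 1 germline gene at its number, drawn at an arbitrary height, in orange where the promoter holds an E-box and in blue where it does not. The 10 genes sit between 15 and 38 CpG, to the right of the median of 7, and 7 of them hold an E-box.

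The letters CACGTG, which read the same on both strands, occurred in the promoters of 7 of the 10 genes (70%), against 8.09% of all genes with a RefSeq promoter. Among the 10037 genes whose promoter has at least 15 CpG, the number in the lowest member, the share was 12.0%. The windows of 26 bases around the E-box are printed for the 7 genes, since this match is the feature that most of them share. They lie at chr13:112652324-112652349 (Ddx4, reverse strand), chr1:166238952-166238977 (Mael, reverse), chr3:102936179-102936204 (Sycp1, reverse), chr10:88459513-88459538 (Sycp3, forward, the first of a pair), chrX:134476524-134476549 (Taf7l, reverse), chr6:49395474-49395499 (Stk31, forward) and chr3:40708768-40708793 (Slc25a31, forward).
Ddx4: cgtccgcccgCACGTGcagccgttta
Mael: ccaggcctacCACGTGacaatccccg
Sycp1: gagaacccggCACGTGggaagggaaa
Sycp3: cgttggctccCACGTGagaacgggca
Taf7l: cctcttatacCACGTGacagaactcg
Stk31: gccggccaccCACGTGaccagggctg
Slc25a31: caactggaaaCACGTGttatggtcac

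The first base of the E-box stood 29 bases before the start in Ddx4, 49 in Taf7l, 64 in Sycp3, 93 in Slc25a31, 94 in Sycp1 and 223 in Mael. In Stk31 it stood 55 bases before the first start and 120 before the second. Dazl, Tex101 and Asz1 did not hold these letters in this window. The core letters of an E2f6-type site, TCCCGC or GCGGGA on the other strand, were found in 5 of the 10 genes (50%), against 22.1% of all genes and 47.2% of those with at least 15 CpG. These 5 genes were Ddx4, Mael, Sycp1, Sycp3 and Slc25a31. The share with an E-box was thus above that of CpG-rich promoters at large, while the share with the E2f6-type core was close to it, as a description of 10 chosen genes. An E-box was also found in 41.2% of the piRNA genes described below and in 28.6% of the early germ cell genes. It was in 23.8% of the meiosis genes, 19.0% of the silencing factors and 5.56% of the sperm and oocyte genes. A match of 6 letters describes the sequence and does not show that a factor binds there. The genes with an E-box included the member that was called higher in Top2β-null cells, members with counts in both genotypes and members without a count.

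The libraries held between 133116830 and 149647278 counts, and Top2b, the targeted gene, was lower in both Top2β-null libraries (3879 and 3789 normalized counts) than in both wt libraries (18259 and 18465). Normalized counts here are raw counts brought to a common library size with edgeR's TMM factors. Of the 10 fibroblast markers, all had counts, with Lum near 0 in every library, and their summed level was 1.30e+06 to 1.33e+06 normalized counts in wt cells and 8.86e+05 to 8.91e+05 in Top2β-null cells. Of the 9 fibroblast markers tested, 4 were higher and 4 lower by the adjusted p, where 65.0% of all features passed (32.5% in each direction), with Col1a1 lower (log2 fold change -1.38, adjusted p = 1.19e-15) and Dcn higher (4.99, adjusted p = 8.39e-20) in Top2β-null MEF cells by edgeR's quasi-likelihood test.

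Most of the 10 germline genes were silent or nearly so in both genotypes, but Sycp3 and Taf7l had reads in wt MEF cells as well, and Sycp1 in Top2β-null MEF cells. These 3 had enough counts to be tested. Dazl, Mael, Tex101, Asz1 and Stk31 had 0 counts in all 4 libraries, and a sixth gene, Slc25a31, stayed at or below 3 counts in each. Of the 10 genes, 50% were without a count and 60% at 3 counts or fewer in every library. Over all protein-coding genes of the table, 16.0% were without a count and 26.0% at 3 counts or fewer. Together the 10 genes gave 490 counts in the wt libraries and 795 in the Top2β-null libraries. Sycp3 made up 73.5% of these in wt, and Sycp1 made up 54.1% in Top2β-null MEF cells.

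**Figure D2:**
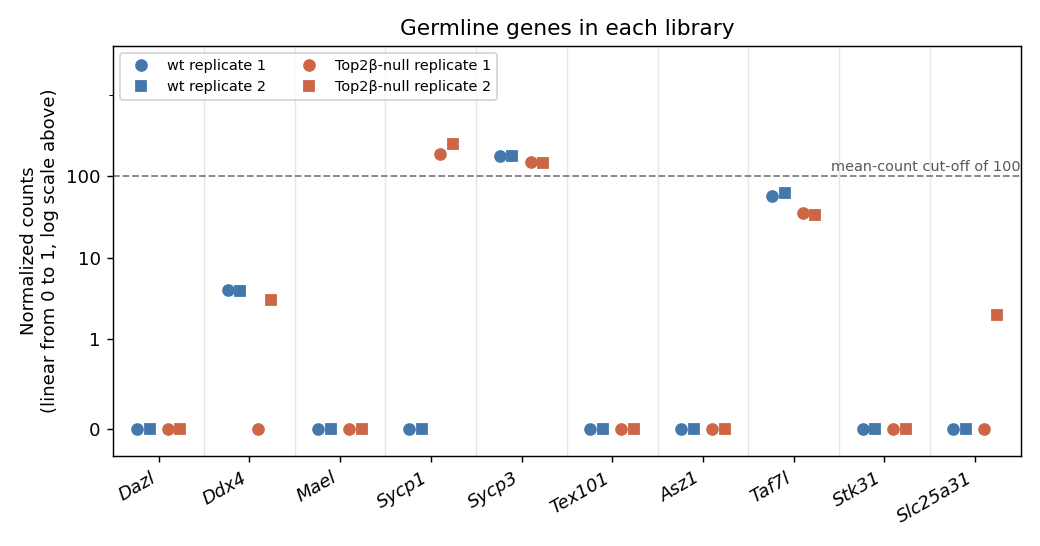
Each point is the level of 1 germline gene (x axis) in 1 library, in normalized counts (y axis, linear from 0 to 1 and logarithmic above), with wt libraries in blue and Top2β-null libraries in orange. Sycp1 is at 0 in both wt libraries and at 185 and 249 in the Top2β-null libraries, Sycp3 and Taf7l have counts in all 4, and the other 7 genes lie at or near 0.

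The members of the synaptonemal complex, the protein zipper that joins paired chromosomes in meiosis, carried most of the counts. Those of Sycp3 may include reads of another gene, as given below. Sycp1 encodes the transverse filament of the complex, which spans the gap between the chromosome axes. The gene lies on the reverse strand at chr3:102818499-102936100 (GRCm38). It had 0 and 0 counts in the wt libraries and 179 and 251 counts in the Top2β-null libraries. Both Top2β-null libraries were therefore far above both wt libraries, which had no read on the gene.

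In normalized counts, Sycp1 stood at 185 and 249 in the Top2β-null libraries, a mean of 217 ± 44.7 (SD, n = 2). Taking 3 counts in each wt library as the most that a count of 0 allows, its level was at least 73.2-fold higher in the Top2β-null cells. This bound covers counting error alone. The gene passed edgeR's quasi-likelihood test, adjusted by the method of Benjamini and Hochberg over all 26566 features (adjusted p = 2.10e-10). It entered that test through its Top2β-null libraries alone, so that a difference was bound to be large. The fitted log2 fold change of 10.76 (SE 0.571) depends on the small count that the model adds to 0, and is no measure of size.

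Sycp1 also exceeded the other cut-offs of the study's methods, which ask for a log2 fold change beyond 1 in either direction and for more than 100 normalized counts on average. Its mean over the 4 libraries was 108, just over the last of these. Without either Top2β-null library the mean fell below 100. The wt zeros then weigh more in the mean, so this loss says nothing about agreement between the Top2β-null libraries. The Top2β-null libraries lay 1.34-fold apart from each other. By the 3 cut-offs together, 1 of the 10 germline genes was called higher and 0 were called lower in Top2β-null MEF cells. Of all 26566 features tested, 5.27% were called higher and 4.97% lower, and 10.2% in either direction.

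Per length, Sycp1 reached 0.370 and 0.497 CPM (normalized counts relative to the library total) for each kilobase of exon in the Top2β-null libraries. Of all protein-coding genes, 48.4% had a lower mean on this scale in these cells. That rank counts the 26.0% of them at 3 counts or fewer in every library, and it would be lower among expressed genes alone. In bulk RNA, a low level in every cell and a higher level in a few cells cannot be told apart. A move from 3 counts or fewer in both wt libraries to at least 100 normalized counts in both Top2β-null libraries was seen for 138 of 27194 genes (0.507%), and for 90 of 6686 protein-coding genes (1.35%). Sycp1 was the only one of the 10 germline genes to make it. In the other direction, 33 of the 26255 genes at 3 counts or fewer in both Top2β-null libraries (0.126%) had at least 100 normalized counts in both wt libraries.

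Sycp3, which builds the axis of each chromosome to which Sycp1 attaches, was the most abundant of the 10 genes in wt MEF cells. It lies on the forward strand at chr10:88459569-88473236. Its counts were 175 and 185 in wt cells and 144 and 148 in Top2β-null cells. The wt libraries lay above the Top2β-null libraries without overlap, by a small margin.

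Sycp3 averaged 178 ± 1.46 normalized counts (SD, n = 2) in the wt libraries. In Top2β-null MEF cells it was 148 ± 1.81 (SD, n = 2). The log2 fold change of -0.26 (SE 0.133) did not pass edgeR's test (adjusted p = 0.0928, with 0.0731 to 0.312 over the alternatives that kept all libraries). Of its 1264 exonic bases, 660 (52.2%) also lie in exons of Chpt1, a phospholipid enzyme gene on the opposite strand. Chpt1 itself had 3577 and 3599 counts in wt cells and 2922 and 3038 in Top2β-null cells, a log2 fold change of -0.23 (SE 0.0379, adjusted p = 5.45e-05). The strand setting of the counting is not given in the sources used here, so the share of Sycp3 counts that belongs to Chpt1 was not tested. The level of Sycp3 is uncertain for that reason.

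Taf7l encodes a germ-cell paralog of Taf7, a subunit of the general transcription factor TFIID. It lies on the reverse strand at chrX:134460118-134476490. Its counts were 57 and 65 in wt cells and 34 and 34 in Top2β-null cells. Both Top2β-null libraries were lower than both wt libraries, so the gene with the second highest count in wt MEF cells moved against Sycp1.

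In normalized counts, Taf7l stood at 60.2 ± 3.71 (SD, n = 2) in the wt libraries. In the Top2β-null libraries it stood at 34.4 ± 1.09 (SD, n = 2). Its log2 fold change was -0.80 (SE 0.250), and it passed edgeR's test (adjusted p = 0.0103) but neither the cut-off on the fold change nor that on the mean count. With DESeq2 the log2 fold change was again -0.80 and the adjusted p was 0.0738, the highest of a range from 0.00779 over the alternatives that kept all libraries. Without wt replicate 2 it was 0.0547, so that this library, too, decides whether Taf7l passes. When only the adjusted p was asked to be below 0.05, 1 germline gene was higher (Sycp1), 1 was lower (Taf7l) and 1 was neither (Sycp3). Of all features tested, 32.5% were higher and 32.5% lower by that criterion, 65.0% in all, so that passing this criterion was common.

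Per length, Sycp3 stood at 0.993 and 1.00 CPM per kilobase in wt, and Taf7l at 0.182 and 0.199. In Top2β-null MEF cells the order on this scale was Sycp3 (0.838 and 0.824), then Sycp1 (0.370 and 0.497), then Taf7l (0.111 and 0.107). The place of Sycp3 is uncertain, since its counts may include Chpt1 reads. These 3 genes did not overlap each other in any library, in either genotype.

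The 2 members that regulate germ-cell RNA were at or near 0. Ddx4 (chr13:112598333-112652475, reverse strand), the RNA helicase also known as Vasa, had 4 and 4 counts in wt cells and 0 and 3 in Top2β-null cells. These few reads are all that was seen of it. The ratio of Top2β-null to wt counts, scaled to total counts, was 0.404, with an exact 95% interval of 0.0690 to 1.68 that covers counting error only, so that no difference was detectable at this depth. Dazl (chr17:50279395-50293636, reverse strand), an RNA-binding activator of translation in germ cells, had 0 counts in each library.

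Mael (chr1:166201201-166238747, reverse strand) and Asz1 (chr6:18050964-18109061, reverse strand) act in the piRNA pathway, which uses small RNAs to silence transposons in the germline, Asz1 as a scaffold on mitochondria. Both had 0 counts in each library. The same was true of Tex101 (chr7:24668007-24676675, reverse strand), a surface protein of male germ cells, and of Stk31 (chr6:49395604-49469501, forward strand), a protein with a kinase domain and a Tudor domain. For each of these 5 genes, 0 counts over all 4 libraries allow a level of up to 0.00532 CPM.

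Slc25a31 (chr3:40708855-40726096, forward strand), the ADP/ATP carrier that serves spermatocyte mitochondria, had 0 and 0 counts in wt cells and 0 and 2 in Top2β-null cells. Both groups lay at or below 3 counts in each library, so no fold is given. When the filter on low counts was left out, Ddx4 had an adjusted p of 0.467 and Slc25a31 one of 0.421 by edgeR's test over 38771 features.

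The relatives of these genes that serve body cells were expressed in both genotypes. Taf7, at 1.20 CPM per kilobase in wt and 1.22 in Top2β-null cells, lay above 55.3% and 55.0% of all protein-coding genes, silent ones included. Ddx3x, Slc25a4 and Slc25a5 lay above 98.4% of them or more. Taf7 had 583 and 528 normalized counts in wt cells and 587 and 546 in Top2β-null cells, and its libraries overlapped between the genotypes (log2 fold change 0.03, adjusted p = 0.770). Ddx3x, a DEAD-box helicase found in most cells, fell by 0.37 on the log2 scale (adjusted p = 2.57e-09). The ADP/ATP carrier Slc25a4 rose by 0.33 (adjusted p = 1.07e-08), and Slc25a5 rose by 0.07 (adjusted p = 0.0464).

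Among other germline genes, more were lower than higher in Top2β-null MEF cells. Of 81 genes in 4 lists (meiosis, the piRNA pathway, sperm and oocyte genes, and early germ cell genes), 36 had enough counts to be tested, and 14 were without a count in every library. With an adjusted p below 0.05 and an absolute log2 fold change above 1, 3 were higher and 12 lower in Top2β-null MEF cells. Among all features, 11.5% were higher and 9.81% lower by this rule, and 21.3% in either direction. Of the 12 lower genes, 6 reached the 10 counts asked of a tested gene in wt libraries alone, and 2 of the 3 higher genes reached them in Top2β-null libraries alone, so that a difference was bound to appear in these. Among the 28 genes that reached 10 counts in libraries of both genotypes, 1 was higher and 6 lower. The higher one, Nanos3, lost its call with DESeq2 (adjusted p = 0.114). The median log2 fold change of all 36 genes was -0.49, and that of all genes tested was -0.0058.

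Of 27 further genes of meiosis, 15 were tested, and 7 were lower and 0 higher by this rule, with a median log2 fold change of -0.94. Of all features, 9.81% were lower and 11.5% higher by it. Mei4, Hormad2 and Majin entered through wt libraries alone, and among the 12 others 4 were lower. By the adjusted p alone, 11 were lower and 1 was higher, where 32.5% of all features were lower and 32.5% higher. Syce2, a protein of the central element that works directly beside Sycp1, was at 541 and 514 normalized counts in wt and at 97.4 and 80.2 in Top2β-null MEF cells, a log2 fold change of -2.57 (SE 0.115, adjusted p = 7.89e-12). Sycp2, the partner of Sycp3 in the chromosome axis, was the gene on the higher side, with 29.3 and 29.9 in wt cells and 51.8 and 43.6 in Top2β-null cells (log2 fold change 0.68, SE 0.278, adjusted p = 0.0419). It lost this call with DESeq2, with the replicate number as a block, and without wt replicate 1, wt replicate 2 or Top2β-null replicate 1, where 0 genes of the list were higher by the adjusted p. Sycp1 and Syce2, which meet in the central region of the synaptonemal complex, thus moved in opposite directions.

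The largest fall in the meiosis list was that of Tex15, which acts in recombination and transposon silencing of male germ cells, from 395 and 484 to 31.1 and 28.7 normalized counts (log2 fold change -3.87, adjusted p = 6.02e-12). Mei4, a factor for meiotic DNA breaks, fell by 2.93 on the log2 scale (adjusted p = 3.29e-05). Hormad2, an axis protein, fell by 2.70 (adjusted p = 8.11e-05). All of these fell from a level above 25 normalized counts in both wt libraries. Stag3, the meiotic cohesin subunit, fell by 1.99 (adjusted p = 2.46e-05), and Majin, which tethers telomeres to the nuclear envelope, fell by 1.79 (adjusted p = 0.00576). Majin lost its call with DESeq2 and without Top2β-null replicate 1, and Prdm9, the seventh gene of the count, with total-count scaling and without Top2β-null replicate 2.

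**Figure D3:**
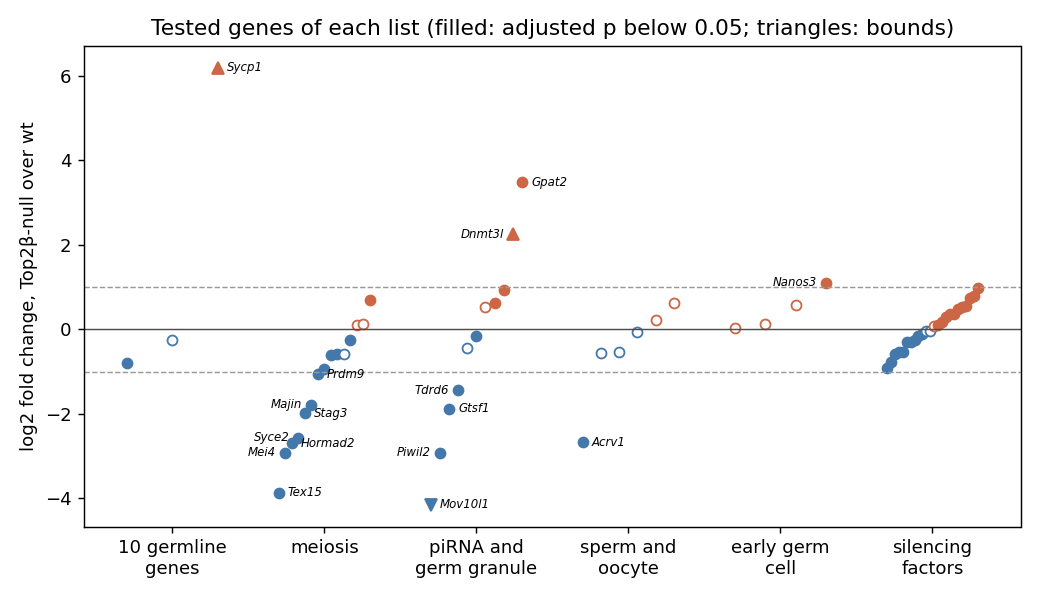
Each point is the log2 fold change (y axis) of 1 tested gene of a list (x axis), filled where the adjusted p of edgeR's test is below 0.05 and open otherwise, with triangles for genes at 3 counts or fewer in each library of 1 genotype, drawn at their bound. Sycp1 stands at a lower bound of 6.19, 7 of the 15 meiosis genes lie below -1 with an adjusted p below 0.05, and none of the 24 silencing factors passes 1 in either direction, except Dnmt3a with total-count scaling or without wt replicate 1.

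Genes of the piRNA pathway lay on both sides. Of 20, 11 were tested, and 2 were higher and 4 lower by the adjusted p and the fold change. Of all features, 11.5% were higher and 9.81% lower by this rule. Both higher genes entered the test through Top2β-null libraries alone, and Mov10l1, Piwil2 and Tdrd6 through wt libraries alone, which leaves 1 lower gene, Gtsf1, among the 6 that entered through both. Mov10l1, the helicase that feeds precursors into the pathway, was at 48.4 and 59.9 normalized counts in wt cells and 2.07 and 0.990 in Top2β-null cells, at least 17.8-fold lower. Dnmt3l, the cofactor of de novo DNA methylation in germ cells, was at 0 and 0.966 in wt cells and 13.5 and 14.9 in Top2β-null cells, at least 4.78-fold higher. Gpat2, a mitochondrial protein of the piRNA pathway, was at 5.05 and 6.76 in wt cells and 61.1 and 73.3 in Top2β-null cells (log2 fold change 3.48, SE 0.367, adjusted p = 4.08e-07). Both Top2β-null libraries thus lay above both wt libraries for Dnmt3l and Gpat2.

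Piwil2, a Piwi protein that binds piRNAs, fell by 2.92 on the log2 scale (adjusted p = 0.000108). Gtsf1, a Piwi-associated factor, fell by 1.88 (adjusted p = 3.72e-05), and Tdrd6, a Tudor protein of germ granules, fell by 1.45 (adjusted p = 0.0148), a call that was lost with DESeq2, without wt replicate 1 and without Top2β-null replicate 1. Of the 22 sperm and oocyte genes, 6 were tested and 1 passed the adjusted p and the fold change, where 21.3% of all features did. It was the acrosome gene Acrv1, which went from 87.8 and 94.7 to 16.6 and 11.9 normalized counts (log2 fold change -2.68, adjusted p = 3.99e-07). Of the 12 early germ cell genes, 4 were tested and 1 passed, against the same 21.3% of all features. It was Nanos3, an RNA-binding protein of primordial germ cells, which went from 15.1 and 10.6 to 22.8 and 32.7 (log2 fold change 1.11, adjusted p = 0.0208). This call was lost with DESeq2, without wt replicate 2 and without Top2β-null replicate 2.

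The values of whole marker lists stand beside the rise of Sycp1 as follows. The summed level of the 22 sperm and oocyte genes was 220 to 236 normalized counts in wt cells and 128 to 140 in Top2β-null cells, and 7 of them, including Pgk2 and Akap4 of spermatids, had no count in any library. That of the 12 early germ cell genes was 433 to 493 in wt cells and 488 to 524 in Top2β-null cells, most of it from Dnd1 (log2 fold change 0.04, adjusted p = 0.698). For 7 genes of the gonad's body cells it was 152 to 181 and 171 to 188, with Foxl2 at 0 in every library and Insl3, which shares exons with Jak3 on the same strand, at 2 and 0 counts in wt and 34 and 32 in Top2β-null cells. Dazl and Ddx4, which mark germ cells themselves, were at 0 and at no more than 4 counts in each library. Of 5 endothelial markers, the summed level was 162 to 165 in wt cells and 252 to 259 in Top2β-null cells, with Kdr higher (log2 fold change 1.54, adjusted p = 2.09e-07), Emcn at no more than 1 count, and Tek at 43 and 36 counts in wt cells and 9 and 4 in Top2β-null cells. The 8 leukocyte markers summed to 88.9 to 108 in wt cells and 96.3 to 107 in Top2β-null cells, with Tyrobp at 0. One of them, Itgam, was at least 9.57-fold higher in Top2β-null cells (1 and 1 counts against 27 and 29), and it shares exons with Gm49368 on the same strand. The 5 epithelial markers summed to 28.0 to 28.3 and 16.8 to 21.7. Tek reached 10 counts in wt libraries alone, and Insl3 and Itgam in Top2β-null libraries alone. The part of other cells in the Sycp1 reads was not tested.

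The machinery known to silence germline genes was expressed in both genotypes, and its members differed by less than 2-fold. All 24 silencing factors were tested. By the adjusted p and the fold change, 0 were higher and 0 lower (1 was higher, Dnmt3a, with total-count scaling or without wt replicate 1), while by the adjusted p alone 11 were higher, 10 lower and 3 neither, with a median log2 fold change of 0.03. That 21 of 24 passed the adjusted p has to be read against the 65.0% of all features that did, and these factors are abundant, with standard errors of at most 0.0683.

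Among the DNA methyltransferases, Dnmt1 did not pass the test (log2 fold change -0.03, SE 0.0253, adjusted p = 0.241). It was at 38914 and 39548 normalized counts in wt cells and 38112 and 38470 in Top2β-null cells. Dnmt3a rose from 1389 and 1340 to 2710 and 2677, a log2 fold change of 0.98 (SE 0.0456, adjusted p = 1.35e-11). Dnmt3b was at 626 and 637 in wt cells and 518 and 510 in Top2β-null cells (log2 fold change -0.30, SE 0.0683, adjusted p = 0.00119). Of the enzymes that set methylation, one was thus higher and the other lower in Top2β-null MEF cells. Uhrf1, which guides Dnmt1 to newly copied DNA, fell by 0.59 (adjusted p = 4.28e-12), and Hells, a remodeller needed for methylation, rose by 0.36 (adjusted p = 2.33e-09).

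In the variant Polycomb complex, E2f6, a DNA-binding subunit, fell from 2888 and 2839 to 1531 and 1501 normalized counts (log2 fold change -0.92, SE 0.0439, adjusted p = 1.93e-11), the largest fall among the silencing factors. L3mbtl2 fell by 0.77 (adjusted p = 1.39e-12), and its exons share 1023 bases with Chadl on the opposite strand. Ring1 fell by 0.55 (adjusted p = 2.33e-07) and Yaf2 by 0.54 (adjusted p = 5.48e-10).

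Other subunits rose. Rnf2, the ubiquitin ligase that is the counterpart of Ring1, rose by 0.79 (adjusted p = 1.39e-10), and Rybp, the counterpart of Yaf2, rose by 0.75 (adjusted p = 1.99e-12). Mga, which binds the E-box together with Max, rose by 0.52 (adjusted p = 1.53e-11), and Max itself fell by 0.16 (adjusted p = 0.000360). Pcgf6 did not pass the test (log2 fold change 0.09, adjusted p = 0.0617). In each of the pairs Ring1 and Rnf2, and Yaf2 and Rybp, one paralog was lower and the other higher in Top2β-null MEF cells. Of the H3K9 methylation factors, Setdb1 rose by 0.55 (adjusted p = 8.68e-12), and Ehmt2 did not pass the test (adjusted p = 0.193).

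**Figure D4:**
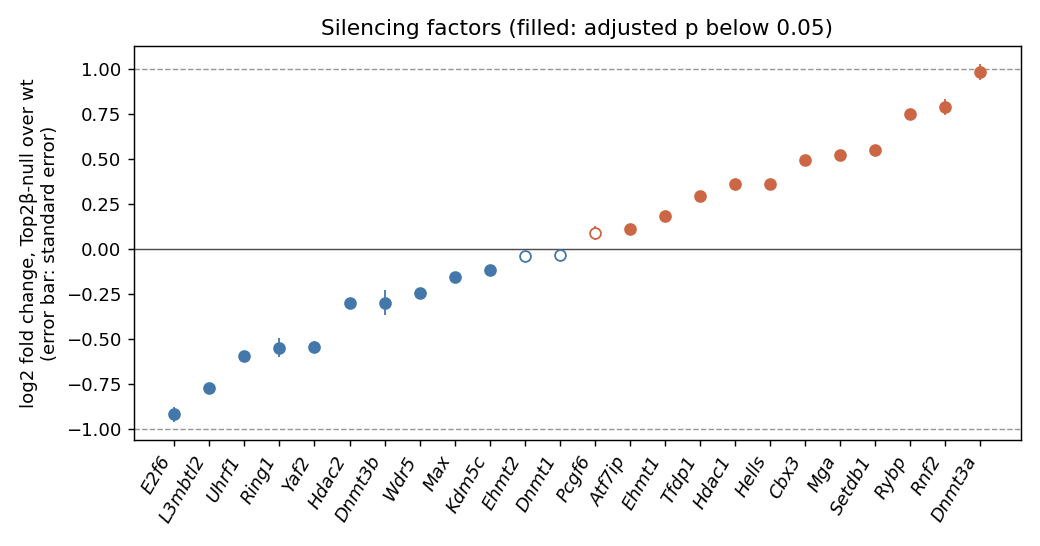
Points give the log2 fold change of each of the 24 silencing factors (x axis) in Top2β-null over wt MEF cells (y axis), with the standard error as a bar, filled where the adjusted p is below 0.05. The values run from -0.92 (E2f6) to 0.98 (Dnmt3a), and the open points are Ehmt2, Dnmt1 and Pcgf6.

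The genes next to the germline genes were examined since a change could extend over a region. Of 25 genes that overlap a member or are its nearest neighbour on either side, 12 were tested, 8 had no count in any library, and by the adjusted p 2 were higher, 8 lower and 2 neither, where 32.5% of all features were higher and 32.5% lower. Ildr2 reached the 10 counts of the filter in wt libraries alone and Gpa33 in Top2β-null libraries alone, and among the 10 others 1 was higher and 7 lower. Next to Sycp1, Nr1h5 lies 3558 bases beyond the Sycp1 start and had 1 and 1 counts in wt cells and 1 and 0 in Top2β-null cells. Tspan2, a membrane protein gene on the other side, fell from 1186 and 1163 to 178 and 173 normalized counts (log2 fold change -2.74, SE 0.0745, adjusted p = 1.38e-14). The pseudogenes Gm42816, Gm33866 and Gm33952, which lie inside Sycp1 on the other strand, had no count. Neither neighbour of Sycp1 was therefore higher in Top2β-null MEF cells.

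In a window of 500 kb on each side of Sycp1, set after the data were seen, 34 other genes were listed and 14 tested. By the adjusted p, 2 of these were higher and 8 lower, against 32.5% of all features in each direction (2 and 6 among the 12 that reached 10 counts in both genotypes), and their median log2 fold change was -0.39. By the 3 cut-offs together 0 were called higher and 3 lower, where 5.27% of all features were called higher and 4.97% lower.

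**Figure D5:**
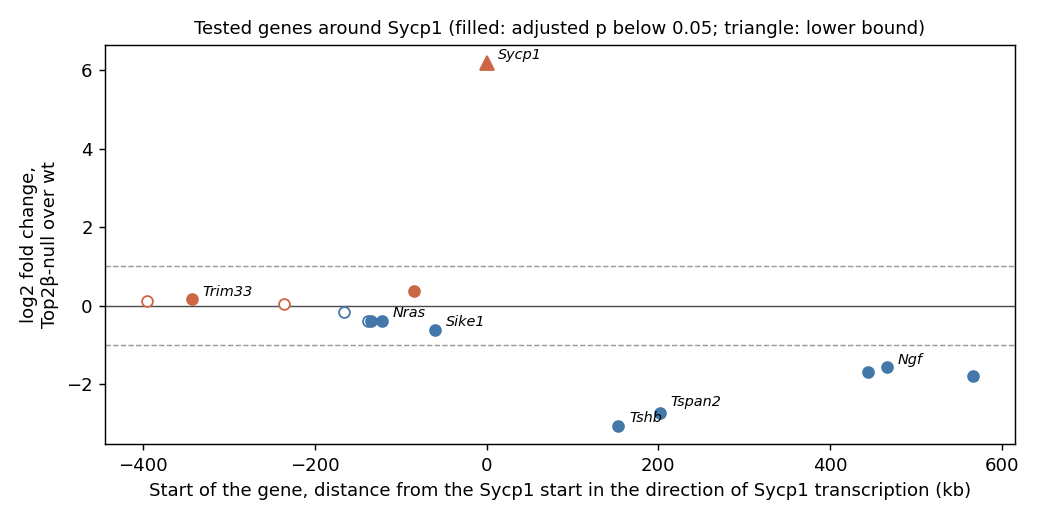
Each point is a tested gene at the distance of its start from the Sycp1 start (x axis, in kb, in the direction of Sycp1 transcription) with its log2 fold change (y axis), filled where the adjusted p is below 0.05, and Sycp1 is a triangle at its lower bound of 6.19. Sycp1 stands alone above 1, and the genes beyond its far end, among them Tspan2 at -2.74, are lower in Top2β-null MEF cells.

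Neighbours of members at or near 0 were not all at 0, and several of them differed between the genotypes. Ildr2, the neighbour of Mael at 15392 bases, was at 807 and 781 normalized counts in wt cells and 1.04 and 0.990 in Top2β-null cells, at least 261-fold lower. Gpa33, on its other side, was at least 3.92-fold higher. Mael itself had 0 counts throughout. Next to Ddx4, Slc38a9 fell by 1.53 on the log2 scale and the pseudogene Gm3226 by 0.70, with reads that could belong to its parent gene. Next to Slc25a31, Hspa4l fell by 0.90 and Intu rose by 0.49.

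Taf7l and its nearest neighbour were both lower. Drp2, a gene of the dystrophin family 3545 bases from Taf7l on the forward strand, averaged 485 ± 29.6 normalized counts (SD, n = 2) in the wt libraries. The Top2β-null libraries averaged 283 ± 33.3 (SD, n = 2). Its log2 fold change was -0.77 (SE 0.0956, adjusted p = 2.62e-06), beside -0.80 for Taf7l. Gm16235, an antisense gene near Sycp3, fell by 0.27 (adjusted p = 0.0161), while Fam221a next to Stk31 (adjusted p = 0.451) and the pseudogene Gm17060 inside it (adjusted p = 0.786) did not pass the test.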

How the data were processed

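The authors trimmed 150-base paired-end reads with Trim Galore! 0.4.0, aligned them to mm10 (GRCm38) with STAR 2.5.2, keeping up to 100 alignments for a read, sorted them with samtools 1.3.1 and counted them with TEtranscripts 1.5.1 over Gencode M9 genes and RepeatMasker families. The libraries came from a stranded kit, but the mode and strand setting of the counting are not given in the sources used here. The deposited table holds raw counts for 54842 genes and 1562 repeat families in 4 libraries, without normalization.

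Symbols and positions come from GENCODE M21 on GRCm38, which 54495 identifiers matched. The 10 germline genes matched with the same identifier version. Lengths are of merged M21 exons. Promoters are those of RefSeq. CPM per kilobase is the TMM-scaled CPM divided by the kilobases of exon. Counts were fitted in R 4.3.3 with edgeR 4.0.16 (TMM over genes and repeats, quasi-likelihood test with genotype as the only term) for the 26566 features (25085 genes) that reached 10 counts in 2 or more libraries, with Benjamini-Hochberg adjustment over all of them. The call rule (adjusted p below 0.05, absolute log2 fold change above 1, mean normalized count above 100) follows the study's methods, and the same rule without the mean count was added because germline genes are low. The floor is 3 counts for each library, except that the CPM limit of genes without a count takes 3 counts over all 4 libraries together. The standard error is the log2 fold change divided by the root of the F statistic. The fits were tested on simulated data.

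The members and gene lists were chosen with earlier results of these data known. The text names the 10 members, Top2b, up to 6 genes of each list with the largest changes among those with an adjusted p below 0.05 and an absolute log2 fold change above 1 (for silencing factors, those with an adjusted p below 0.05, of which some are left out for length), the somatic relatives, and overlapping or nearest genes. Dnmt1, Pcgf6, Ehmt2, Sycp2, Prdm9, Dnd1, Pgk2, Akap4, the markers of other cell types, the fibroblast genes and the genes of the 500 kb window were named after their values were seen. Replicate libraries lay further apart than counting error alone gives (chi-square over its degrees of freedom was 3.65 for wt and 5.07 for Top2β-null), and the depth of 133116830 to 149647278 counts sets the limits given for genes without a count. Alternatives were DESeq2 1.42.0, TMM from genes only, total-count scaling, no filter, a filter at 100 counts in every library, the replicate number as a block, a rule without the mean count, and leaving out each library. The values of 1 gene in the 500 kb window are not reported here.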

Additional observations from a re-analysis of the deposited data

How the results depend on the processing

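Sycp1 was at 0 in both wt libraries and entered each fit through its Top2β-null libraries alone, so that its direction could not change under any alternative. With at least 100 counts in every library, Sycp1, at 0 in wt, and Taf7l, below 100 in all 4 libraries, are not in the fit. Of the germline genes, 0 were then called higher against 1. The genes called higher went from 1385 to 816 and meiosis genes called lower from 3 to 1. Without the mean count in the rule, 3014 genes were higher and 2593 lower (1317 with it), and called lower were 7 meiosis genes, 4 piRNA genes and 1 sperm and oocyte gene, and called higher 2 piRNA genes and 1 early germ cell gene. Scaling to total counts called 1 piRNA gene and 1 silencing factor higher, where the rule with TMM called 0. It moved the median of all features by 0.070 on the log2 scale. DESeq2 gave Taf7l an adjusted p of 0.0738 with a log2 fold change of -0.80, and the cause was not tested.

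Leaving out a library leaves 1 in its group, which is then assumed to vary like the other group. This gave 1264 to 1477 genes called higher, 1235 to 1386 lower, and 2 to 3 meiosis genes lower. Germline genes called higher were 0 to 1, and 0 without Top2β-null replicate 1 or without Top2β-null replicate 2, since the mean of Sycp1 then fell under 100. Silencing factors called higher were 0 to 1, with 1 without wt replicate 1. The fitted log2 fold change ran from 10.53 to 10.99 for Sycp1, from -0.27 to -0.25 for Sycp3 and from -0.86 to -0.74 for Taf7l, whose adjusted p was 0.0547 without wt replicate 2. The groups share replicate numbers, but same-numbered libraries did not deviate together (r = 0.0197 over 17952 features, 2 pairs), so the numbers give no pairing. With the replicate number as a block, 1386 genes were called higher and 1318 lower, and the log2 fold changes were 10.77 for Sycp1, -0.26 for Sycp3 (adjusted p = 0.117) and -0.80 for Taf7l (adjusted p = 0.0162). Depth limits what can be said of the 7 germline genes with too few counts for a test.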
